A study of Rattus norvegicus with 9 samples.

Results

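The syndecans and glypicans are the cell surface proteoglycans that carry heparan sulfate, and 9 of their genes were followed in cultured rat fibroblasts from the epineurium (Fb-Epn), the parenchyma (Fb-Par) and the skin (Fb-Skn). The genes were chosen by symbol (*Sdc1* to *Sdc4* and *Gpc1* to *Gpc6*). Of these 10 symbols, 9 matched 1 row each of the 32883 genes, and *Gpc5* was not analysed here. There were 9 libraries, 3 of each type. Epineurium and parenchyma came from the sciatic nerves of 2 male wild-type Lewis rats, abdominal skin came from 1 other male, all 10 weeks old, and the labels name no treatment. The cells grew in medium with 10% fetal bovine serum and were passaged once. From so few rats the 3 samples of a type are not 3 separate animals, and p-values therefore measure only the spread between these samples, which may be technical. Skin and nerve samples differ at once in tissue, rat and site of the body, which cannot be told apart.

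A syndecan crosses the membrane once, holds heparan sulfate chains on its outer part and binds cytoskeletal adaptors with a short tail. A glypican is tied to the outer leaflet of the membrane by a glycosylphosphatidylinositol (GPI) anchor, and its chains lie close to the cell surface. The chains bind fibroblast growth factors, Wnt and Hedgehog ligands and matrix proteins, and in nerve they also meet receptors on growing axons. Proteases release syndecans from the surface, and the lipase Notum can cut the GPI anchor of glypicans.

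The members lie on 8 chromosomes of rn6, and 2 of them are neighbours. *Gpc4* (ENSRNOG00000002413, X, 139354155 to 139464798) and *Gpc3* (ENSRNOG00000060179, X, 139579268 to 139916883) are both on the minus strand, 114469 bases apart. The 4 listed genes between them had at most 25 counts in any library. The overlapping genes listed within *Sdc2*, *Gpc1* and *Gpc3* had 0 counts in every library. Promoters (250 bases before to 50 after the start) are shown for this X-linked pair, since both genes were highest in Fb-Par, and for *Sdc4*, which was highest in Fb-Epn. They are RefSeq sequences of the build GRCr8, which is not the build of the counts. All 3 are on the minus strand, *Gpc3* at chrX:137157549-137157848, *Gpc4* at chrX:136676008-136676307 and *Sdc4* at chr3:173592874-173593173. Capitals mark GC boxes (GGGCGG on either strand), the motif bound by Sp1.
Gpc3: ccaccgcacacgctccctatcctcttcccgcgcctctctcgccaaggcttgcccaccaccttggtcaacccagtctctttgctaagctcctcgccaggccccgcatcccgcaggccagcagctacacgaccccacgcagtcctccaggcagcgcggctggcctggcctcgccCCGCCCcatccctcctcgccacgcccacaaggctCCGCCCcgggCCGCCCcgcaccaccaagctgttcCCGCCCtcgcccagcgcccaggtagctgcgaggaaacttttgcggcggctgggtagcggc
Gpc4: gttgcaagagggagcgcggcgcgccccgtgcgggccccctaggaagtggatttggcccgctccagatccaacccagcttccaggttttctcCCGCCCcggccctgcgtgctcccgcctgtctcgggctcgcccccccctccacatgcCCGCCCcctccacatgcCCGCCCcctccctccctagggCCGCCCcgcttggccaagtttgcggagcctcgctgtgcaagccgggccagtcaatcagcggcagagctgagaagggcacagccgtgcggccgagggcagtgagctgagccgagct
Sdc4: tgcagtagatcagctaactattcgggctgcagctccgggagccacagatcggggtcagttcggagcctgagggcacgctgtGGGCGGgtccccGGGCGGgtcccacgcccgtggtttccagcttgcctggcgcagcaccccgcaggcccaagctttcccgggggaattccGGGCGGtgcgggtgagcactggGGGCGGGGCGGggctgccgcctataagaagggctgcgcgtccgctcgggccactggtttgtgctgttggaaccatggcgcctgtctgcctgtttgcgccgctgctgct
The window of *Gpc3* holds 4 GC boxes, that of *Gpc4* holds 4 and that of *Sdc4* holds 5, the last 2 of which share bases. A GC box was found in 33.1% of the 33469 promoters of this length and in all 6 member promoters matched (*Sdc1*, *Sdc3*, *Sdc4*, *Gpc2*, *Gpc3* and *Gpc4*). None of the 6 windows holds TATAAA, found in 14.2% of all promoters, CACGTG (6.42%) or TGACTCA (4.63%), on either strand. CCAAT, found in 37.5%, occurs in *Sdc1* and *Gpc2*. GC content was 71.0% in *Gpc3*, 71.3% in *Gpc4* and 68.7% in *Sdc4*, against a median of 51.7% over all promoters.

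Total counts ranged from 10084584 to 12310506 per library, and libraries of a type differed by more than sampling noise. Levels are the deposited TPM, which divide each count by a gene length and can be compared between genes. Differences in counts were assessed by the quasi-likelihood F test of edgeR in 1 model of all libraries, over 13273 genes. All 9 members passed its expression filter. Calls required an adjusted p (Benjamini-Hochberg) below 0.01, and DE genes were those called ones whose log2 fold change exceeded 2 in size. SE stands for the standard error of a log2 fold change. An exact permutation test of 3 against 3 libraries cannot give a p under 0.10. Of the fibroblast markers, 7 of 8 were analysed, with a summed TPM of 38800 to 39000 in Fb-Epn, with 31100 to 32100 for Fb-Par and 38900 to 40000 for Fb-Skn. Markers of other cells also differed between the types. Of 12 Schwann cell markers 11 were analysed, and their summed TPM was 567 to 590 in Fb-Epn, with 808 to 829 for Fb-Par and 273 to 289 for Fb-Skn, where *Sox10*, *Erbb3*, *Cdh19* and *Gfap* were among the markers with 0 counts. Most of this sum was *Pmp22* (361 to 391, 530 to 552 and 260 to 278 TPM in the order given), and *S100b* did not share its order between the nerve-derived types, with 121 to 137 TPM in Fb-Epn and 116 to 125 in Fb-Par. Macrophage and leukocyte markers (7 of 8 analysed) summed to 195 to 213 in Fb-Epn, with 42.9 to 47.3 for Fb-Par and 13.9 to 17.2 for Fb-Skn. Pericyte and smooth muscle markers (8 of 8) summed to 3350 to 3580, 5480 to 5640 and 10400 to 10800 in the same order, mostly *Acta2*, with *Rgs5* and *Kcnj8* at 0 in Fb-Skn. Perineurial markers (7 of 7) summed to 277 to 289, 406 to 412 and 183 to 205, with *Gjb6* at 0 counts in every library and *Cldn1* at 0 in Fb-Skn. The Fb-Par maximum was that of *Ntn4* (24.5 to 28.5, 294 to 309 and 54.7 to 60.3 TPM), whereas *Slc2a1* (143 to 149, 32.6 to 37.6 and 64.0 to 73.1), *Msln* and *Tjp1* were highest in Fb-Epn. Endothelial markers (7 of 8) summed to at most 17.9 and keratinocyte markers (6 of 6) to at most 4.74 in any library, with *Krt1* at 0 throughout and *Cdh5* and *Emcn* at 0 in Fb-Skn. In such bulk RNA, fewer cells of a type and less RNA per cell cannot be told apart.

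Fb-Par held the most syndecan and glypican RNA. The summed TPM of the 9 genes was 1974 ± 10.3 (SD, n = 3) in Fb-Par, 1086 ± 13.2 in Fb-Epn and 1127 ± 18.1 in Fb-Skn. Every Fb-Par library (1962 to 1982) was above every library of the other types (1071 to 1139). With counts per length scaled by TMM factors in place of TPM, the sums were 1900.0 in Fb-Par, 1053 in Fb-Epn and 1204 in Fb-Skn. Both families were higher in Fb-Par, where syndecans summed to 1017 ± 9.96 and glypicans to 956.4 ± 4.26 TPM. In Fb-Epn these sums were 599.1 ± 10.7 and 486.9 ± 5.84, and in Fb-Skn 582.8 ± 9.20 and 544.0 ± 9.26.

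**Figure D1:**
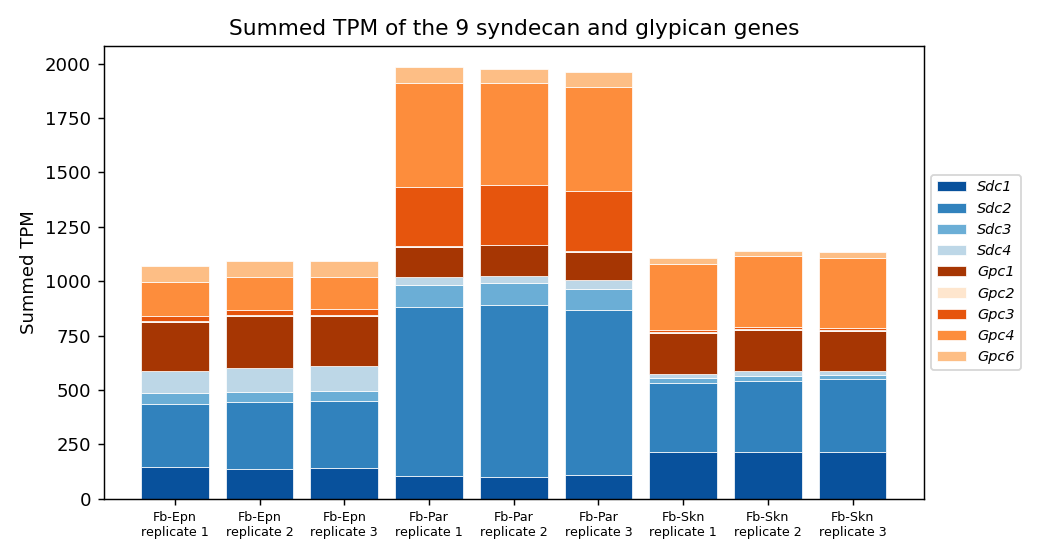
Summed TPM (y axis) of the 9 genes in each of the 9 libraries (x axis), with syndecans in blue and glypicans in orange. The 3 Fb-Par bars reach 1962 to 1982, and the other 6 bars stay between 1071 and 1139.

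*Sdc2* had the highest mean TPM in all 3 types, and below it the order differed. In Fb-Epn, *Sdc2* was followed by *Gpc1*, *Gpc4*, *Sdc1*, *Sdc4*, *Gpc6*, *Sdc3*, *Gpc3* and *Gpc2*, and no neighbours in this order overlapped between libraries. In Fb-Par, *Gpc4* and *Gpc3* took ranks 2 and 3, before *Gpc1*, *Sdc1*, *Sdc3*, *Gpc6*, *Sdc4* and *Gpc2*, again with no overlap. In Fb-Skn, *Sdc2* and *Gpc4* overlapped at the top, and *Sdc1* and *Gpc1* came next. Below these were *Gpc6*, *Sdc3*, *Sdc4*, *Gpc3* and *Gpc2*, with *Sdc3* and *Sdc4* overlapping. The 3 highest genes took 77.1% ± 0.403 of the summed TPM in Fb-Par and 76.2% ± 0.533 in Fb-Skn, but 63.4% ± 0.726 in Fb-Epn (SD, n = 3), where the RNA was spread over more genes.

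Most members differed between every pair of types. Between Fb-Epn and Fb-Skn, 8 of 9 were called, against 43.9% of all tested genes, with 5 higher (23.0% of all genes) and 3 lower in Fb-Epn (20.9%). Between Fb-Epn and Fb-Par, 7 of 9 were called (background 38.8%), with 3 higher (20.2%) and 4 lower in Fb-Epn (18.6%). Between Fb-Par and Fb-Skn, 8 of 9 were called (background 45.6%), with 6 higher (23.2%) and 2 lower in Fb-Par (22.4%). In all 3 comparisons together, 7 of 9 members and 16.5% of all genes were called. The changes were also large, with a median absolute log2 fold change of 1.01, 1.07 and 1.10 over the members, in the order given, beside 0.327, 0.285 and 0.344 over all tested genes. A change of more than 2-fold was called for 5 members in each comparison, against 16.5%, 14.5% and 16.8% of all genes. DE genes were *Sdc4* between Fb-Epn and Fb-Skn, *Gpc3* between Fb-Epn and Fb-Par, and *Sdc3* and *Gpc3* between Fb-Par and Fb-Skn (background 8.44%, 6.48% and 8.54%). In each comparison 8 of 9 members had TPM values that did not overlap, as had 61.4%, 57.3% and 61.7% of all genes. The 3 comparisons share libraries and are not independent of each other.

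**Figure D2:**
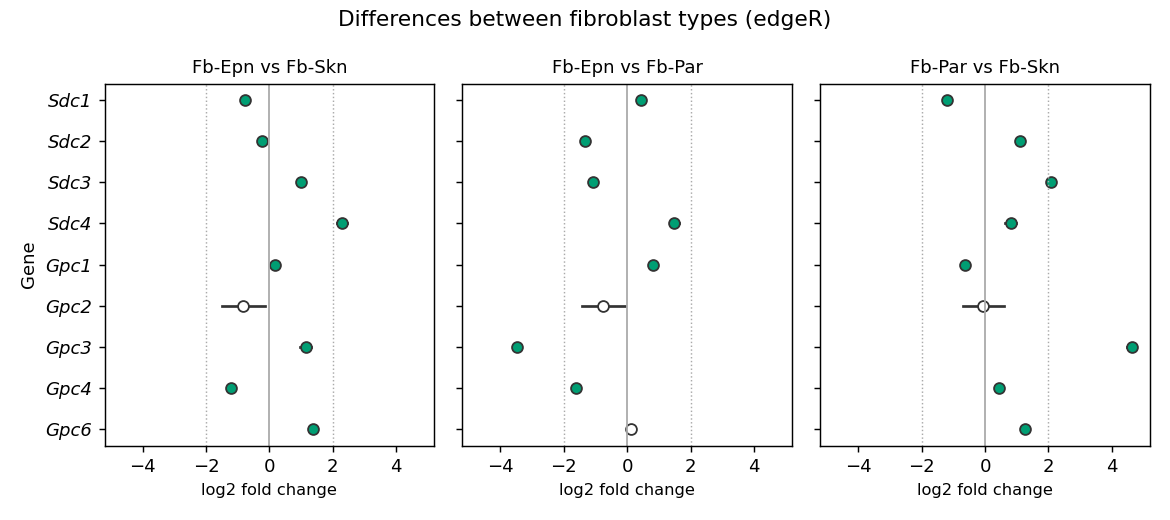
Log2 fold change (x axis) of each gene (y axis) in the 3 comparisons, as edgeR estimates with 95% confidence intervals. Filled points had an adjusted p under 0.01 and dotted lines mark 2 and -2. *Gpc3* lies farthest from 0, at 4.63 in Fb-Par vs Fb-Skn.

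*Sdc1*, the main syndecan of epithelia and plasma cells, was highest in skin fibroblasts. *Sdc1* (ENSRNOG00000059947, chromosome 6, 33885495 to 33908016) had TPM values of 145.3, 136.5 and 143.6 in Fb-Epn, 105.3, 101.0 and 109.2 in Fb-Par, and 217.1, 217.0 and 216.5 in Fb-Skn. None of the types overlapped. Its log2 fold change was -0.75 for Fb-Epn vs Fb-Skn (edgeR SE 0.038, adjusted p = 4.5e-10) and -1.19 for Fb-Par vs Fb-Skn (SE 0.039, adjusted p = 2.4e-12). Between Fb-Epn and Fb-Par it was 0.44 (edgeR SE 0.039, adjusted p = 2.7e-07). It was the only one of the 9 genes with its highest values in Fb-Skn in a called comparison with each of the nerve-derived types.

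*Sdc2*, the syndecan typical of mesenchymal cells, had the highest mean in every type and peaked in Fb-Par. *Sdc2* (ENSRNOG00000004936, chromosome 7, 71572941 to 71686044) had 292.2, 308.5 and 305.7 TPM in Fb-Epn, 774.2, 789.7 and 757.5 in Fb-Par, and 314.9, 325.4 and 333.7 in Fb-Skn. Fb-Par stood far above the other types, which lay close together. Its log2 fold change vs Fb-Skn was 1.10 for Fb-Par (edgeR SE 0.031, adjusted p = 4.6e-13) and -0.24 for Fb-Epn (SE 0.031, adjusted p = 1.2e-05). The latter was not called with limma on log2(TPM + 1), where it was -0.10 (adjusted p = 0.027). Between Fb-Epn and Fb-Par it was -1.35 (edgeR SE 0.031, adjusted p = 6.6e-14). *Sdc2* took 39.2% ± 0.681 of the family's TPM in Fb-Par, 27.8% ± 0.471 in Fb-Epn and 28.8% ± 0.497 in Fb-Skn (SD, n = 3). Schwann cell and perineurial marker sums, mostly *Pmp22* and *Ntn4* respectively in Fb-Par, peaked in Fb-Par as well. So did the Schwann cell marker *Sox10*, whereas *S100b* overlapped between the nerve-derived types. The perineurial markers *Slc2a1*, *Msln* and *Tjp1* were highest in Fb-Epn. The part of such cells in the *Sdc2* values was not tested.

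*Sdc3*, the syndecan of neurons and Schwann cells, was graded from Fb-Par through Fb-Epn to Fb-Skn. *Sdc3* (ENSRNOG00000011927, chromosome 5, 148923098 to 148956404) had 47.5, 47.9 and 46.2 TPM in Fb-Epn, 100.9, 98.99 and 99.2 in Fb-Par, and 21.2, 22.7 and 20.1 in Fb-Skn. No type overlapped another. The log2 fold change was 2.08 in Fb-Par (edgeR SE 0.048, adjusted p = 4.8e-14) and 1.01 in Fb-Epn (SE 0.049, adjusted p = 2.7e-10), both against Fb-Skn, and -1.07 for Fb-Epn vs Fb-Par (SE 0.045, adjusted p = 4.9e-11). The Schwann cell gene *Sox10*, a transcription factor, moved in the same order, with 30.1 to 32.3 TPM in Fb-Par, 13.9 to 15 in Fb-Epn and 0 counts in Fb-Skn. *Sdc3* was not at 0 there, with 466 to 558 counts per Fb-Skn library. The part of Schwann cell RNA in its higher nerve values was not tested.

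*Sdc4*, a focal adhesion syndecan that acts beside integrins, was highest in Fb-Epn. *Sdc4* (ENSRNOG00000014297, chromosome 3, 160872503 to 160891190) had 102.5, 108.1 and 113.1 TPM in Fb-Epn, 40.98, 35.2 and 40.2 in Fb-Par, and 19.1, 21.97 and 18.8 in Fb-Skn. Again, the types did not overlap. Its log2 fold change was 2.30 for Fb-Epn vs Fb-Skn (edgeR SE 0.074, adjusted p = 2.4e-12), 1.49 for Fb-Epn vs Fb-Par (SE 0.069, adjusted p = 1.7e-10) and 0.81 for Fb-Par vs Fb-Skn (SE 0.078, adjusted p = 5.6e-07). *Sdc2* went the other way between the nerve-derived types, so that the ratio of *Sdc4* to *Sdc2* TPM, which does not depend on library scaling, was 0.357 ± 0.0112 in Fb-Epn, with 0.0502 ± 0.00488 for Fb-Par and 0.0615 ± 0.00567 for Fb-Skn (SD, n = 3). Macrophage and leukocyte markers were highest in the same type, and their part in the *Sdc4* values was not tested.

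**Figure D3:**
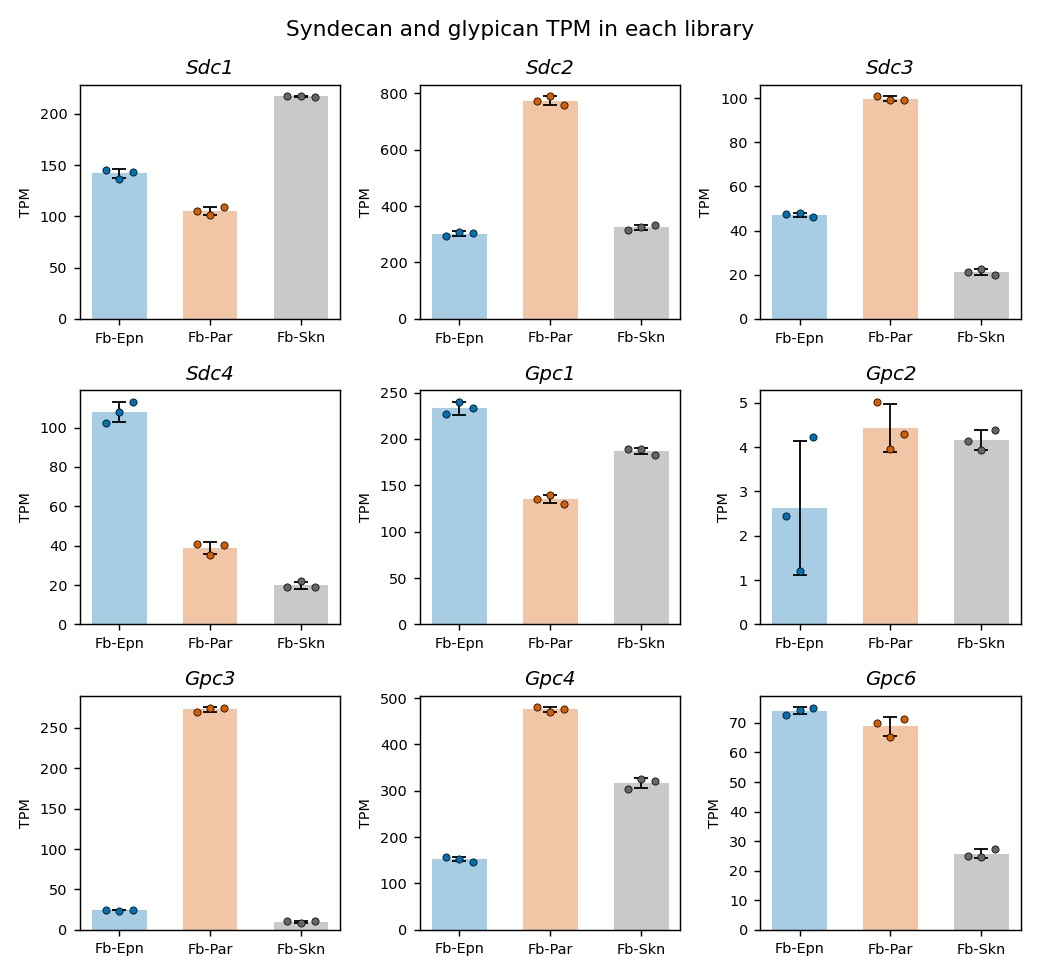
TPM (y axes, each from 0 on its own scale) of the 9 genes by fibroblast type, with bars for the mean, error bars for the SD and points for the 3 libraries of each type. *Sdc2*, *Sdc3*, *Gpc3* and *Gpc4* peak in Fb-Par, *Sdc4* and *Gpc1* in Fb-Epn and *Sdc1* in Fb-Skn.

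*Gpc1*, the glypican of the nervous system and of many cultured cells, was lowest in Fb-Par. *Gpc1* (ENSRNOG00000049437, chromosome 9, 99998275 to 100026818) had 226.5, 240.3 and 232.9 TPM in Fb-Epn, 135.7, 139.2 and 130.1 in Fb-Par, and 189.4, 188.9 and 183.2 in Fb-Skn. None of the types overlapped, but the gap between Fb-Epn and Fb-Skn was small. The log2 fold change was 0.80 for Fb-Epn vs Fb-Par (edgeR SE 0.039, adjusted p = 3.0e-10), 0.18 for Fb-Epn vs Fb-Skn (SE 0.038, adjusted p = 0.0012) and -0.62 for Fb-Par vs Fb-Skn (SE 0.039, adjusted p = 4.5e-09).

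*Gpc3*, a glypican that binds Hedgehog and Wnt ligands and whose loss causes overgrowth, differed most of all members in both comparisons with Fb-Par. *Gpc3* had 24.2, 23.9 and 24.3 TPM in Fb-Epn, 269.6, 273.9 and 274.8 in Fb-Par, and 10.5, 8.64 and 10.5 in Fb-Skn. All Fb-Par libraries stood more than 10-fold above all others. In counts, this was 2401 to 2732 per Fb-Par library against 76 to 106 per Fb-Skn library. The log2 fold change was 4.63 for Fb-Par vs Fb-Skn (edgeR SE 0.066, adjusted p = 1.9e-16), 24.8-fold, and -3.49 for Fb-Epn vs Fb-Par (SE 0.058, adjusted p = 1.6e-15), 11.2-fold. Of all tested genes, 2.46% and 1.73% changed more than this in the respective comparisons. Between Fb-Epn and Fb-Skn the log2 fold change was 1.14 (edgeR SE 0.079, adjusted p = 1.5e-08). *Gpc3* made up 13.8% ± 0.203 of the family's TPM in Fb-Par, 2.22% ± 0.0390 in Fb-Epn and 0.878% ± 0.104 in Fb-Skn (SD, n = 3). The Schwann cell marker *S100b* overlapped between the nerve-derived types. The summed Schwann cell and perineurial markers, mostly *Pmp22* and *Ntn4* respectively, were also highest in Fb-Par. So was the pericyte marker *Cspg4* (71.1 to 74.9 TPM, against 7.36 to 10 in Fb-Epn and 24.9 to 27.2 in Fb-Skn). The pericyte markers *Mcam* (237 to 247, against 61.5 to 66.6 and 134 to 144), *Rgs5* and *Myh11* were highest there too. Of the same list, *Acta2* (10100 to 10500 TPM) was highest in Fb-Skn and *Des* in Fb-Epn. *Kcnj8* and *Abcc9* overlapped between the nerve-derived types. The part of Schwann cells, perineurial cells and pericytes in the *Gpc3* values was not tested.

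*Gpc4*, the neighbour of *Gpc3* and a glypican made by astrocytes and other cells, was also highest in Fb-Par but lowest in Fb-Epn. *Gpc4* had 157.2, 153.8 and 147.4 TPM in Fb-Epn, 480.4, 470.0 and 475.5 in Fb-Par, and 304.7, 325.3 and 321.2 in Fb-Skn. Fb-Skn lay between the nerve-derived types without overlap. The log2 fold change was -1.63 for Fb-Epn vs Fb-Par (edgeR SE 0.033, adjusted p = 1.3e-14), -1.19 for Fb-Epn vs Fb-Skn (SE 0.033, adjusted p = 3.6e-13) and 0.43 for Fb-Par vs Fb-Skn (SE 0.032, adjusted p = 2.3e-08). The pair therefore differed in opposite directions between Fb-Epn and Fb-Skn, with *Gpc3* higher and *Gpc4* lower in Fb-Epn. The ratio of *Gpc3* to *Gpc4* TPM was 0.574 ± 0.0113 in Fb-Par, 0.158 ± 0.00575 in Fb-Epn and 0.0313 ± 0.00417 in Fb-Skn (SD, n = 3). This ratio did not overlap between types. The pericyte markers *Cspg4*, *Mcam* and *Myh11* had the same order of types as *Gpc4*. Others of that list did not, with *Acta2* highest in Fb-Skn, *Des* in Fb-Epn and *Rgs5* at 0 counts in Fb-Skn. The part of pericytes in the *Gpc4* values was not tested.

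*Gpc6*, a glypican close in sequence to *Gpc4*, separated nerve from skin. *Gpc6* (ENSRNOG00000046660, chromosome 15, 102164751 to 103170847) spans 1006097 bases, more than any other member. It had 72.7, 74.4 and 75.1 TPM in Fb-Epn, 70.0, 65.2 and 71.4 in Fb-Par, and 24.9, 24.8 and 27.5 in Fb-Skn. Both nerve-derived types were above Fb-Skn in every library, by a log2 fold change of 1.39 in Fb-Epn (edgeR SE 0.060, adjusted p = 6.8e-11) and 1.27 in Fb-Par (SE 0.060, adjusted p = 1.7e-10). Between the nerve-derived types the log2 fold change was 0.12 with a 95% interval from -0.0021 to 0.233 (edgeR adjusted p = 0.097), so it was not called, although the TPM values did not overlap.

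*Gpc2*, a glypican of developing neurons, had few counts, which varied between the Fb-Epn libraries. *Gpc2* (ENSRNOG00000001367, chromosome 12, 19593041 to 19599374) had 32, 18 and 56 counts in Fb-Epn, 72, 49 and 56 in Fb-Par, and 59, 49 and 55 in Fb-Skn. In TPM these were 1.21 to 4.22, 3.96 to 5.03 and 3.94 to 4.39, and the types overlapped. The log2 fold change in Fb-Epn was -0.81 against Fb-Skn (95% interval -1.50 to -0.13, adjusted p = 0.042, edgeR) and -0.76 against Fb-Par (-1.44 to -0.08, adjusted p = 0.062), neither of which was called. Without Fb-Epn replicate 3 both were called, at -1.33 (adjusted p = 0.0016) and -1.28 (adjusted p = 0.0025, edgeR). Without Fb-Epn replicate 2 they were -0.46 (adjusted p = 0.15) and -0.40 (adjusted p = 0.22, edgeR), and neither was called. Between Fb-Par and Fb-Skn it was -0.06 (-0.71 to 0.59, adjusted p = 0.89, edgeR).

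The genes with the most similar differences were sought by the Euclidean distance over the 3 log2 fold changes, which come from 9 libraries of 3 types. No gene lay within 0.2 of *Gpc3*, and its nearest genes were *Cavin2* (distance 0.280), which encodes a caveolar protein, and *Mamdc2* (0.379). The nearest genes to *Gpc4* were *Rgs22* (0.0174) and *LOC103692166* (0.0877), and 9 genes lay within 0.2 of it. For *Sdc4* these were *Zfp395* (0.125) and *Il1f10* (0.164), and 4 genes lay within 0.2. *Sdc3* had *Med12l* (0.0485) and *Wbp11l1* (0.0971) with 10 genes within 0.2, and *Sdc2* had *Gstp1* (0.0702) and *Rasa3* (0.0742) with 11. More genes shared the differences of *Gpc6* (19 within 0.2, nearest named gene *Fut4* at 0.0594) and *Sdc1* (38 within 0.2, nearest *Smyd2* at 0.0291).

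The enzymes and partners of heparan sulfate also differed between the types. Of 76 genes in 9 hand-written lists 62 were tested, and 43 were called between Fb-Epn and Fb-Skn (28 higher in Fb-Epn), 34 between Fb-Epn and Fb-Par (18 higher in Fb-Epn) and 48 between Fb-Par and Fb-Skn (29 higher in Fb-Par). These are 69.4%, 54.8% and 77.4% of the tested list genes, beside the background of 43.9%, 38.8% and 45.6%. The median log2 fold change was 0.15, -0.01 and 0.29, beside -0.0028, -0.00018 and -0.012 over all tested genes.

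Of 4 tested chain polymerases 3 were higher (background 23.2%) and 1 lower for Fb-Par vs Fb-Skn, 2 higher and 1 lower for Fb-Epn vs Fb-Skn, and 2 lower for Fb-Epn vs Fb-Par. *Ext1*, a subunit of the chain polymerase, had a TPM of 248 ± 7.42 in Fb-Par, 171 ± 5.40 in Fb-Epn and 139 ± 7.70 in Fb-Skn (SD, n = 3). It was chosen after its values were seen. Of 7 linkage region enzymes, which attach the first sugars to the core protein, 3 were higher and 2 lower for Fb-Par vs Fb-Skn, 2 higher and 2 lower for Fb-Epn vs Fb-Skn, and 1 was lower for Fb-Epn vs Fb-Par. For these enzymes the shares called were 71.4%, 57.1% and 14.3%, and the last was below the 38.8% of all genes.

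Sulfation enzymes differed in either direction. Of 4 tested N-sulfation and epimerization enzymes, 1 was higher for Fb-Epn vs Fb-Skn, or 25.0%, below the 43.9% called of all genes. Against Fb-Par, 2 were higher and 1 lower in Fb-Epn (75.0% called, background 38.8%). For Fb-Par vs Fb-Skn, 2 were higher and 1 lower (75.0% called, background 45.6%). *Ndst3*, an N-deacetylase and N-sulfotransferase, had a TPM of 9.93 ± 0.917 in Fb-Epn, with 0.424 ± 0.212 for Fb-Par and 5.98 to 7.88 for Fb-Skn (SD, n = 3, and the range where no SD is given). It was thus nearly missing from Fb-Par, with a log2 fold change of 4.52 for Fb-Epn vs Fb-Par (edgeR SE 0.253, adjusted p = 1.5e-09). Of 6 tested O-sulfotransferases, 3 were higher and 1 lower for Fb-Epn vs Fb-Skn (66.7% called, background 43.9%). Only 1 was higher for Fb-Epn vs Fb-Par, and 16.7% called lay below the background of 38.8%. In Fb-Par vs Fb-Skn, 2 were higher and 2 lower (66.7% called, background 45.6%). The 6-O-sulfotransferase *Hs6st2* was highest in Fb-Epn (14.9 ± 2.35 TPM, against 3.60 ± 0.421 in Fb-Par and 5.67 ± 0.615 in Fb-Skn), whereas the 3-O-sulfotransferase *Hs3st5* was highest in Fb-Skn (5.91 ± 0.538 TPM, against 1.65 ± 0.377 in Fb-Epn and 1.51 ± 0.337 in Fb-Par). Of 5 tested lysosomal enzymes that degrade the chains, 2 were higher and 2 lower for Fb-Epn vs Fb-Skn (80.0% called, background 43.9%). Against Fb-Par, 2 were higher in Fb-Epn, and the 40.0% called lay near the background of 38.8%. For Fb-Par vs Fb-Skn, 2 were higher and 3 lower (background 45.6%).

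Enzymes that act on the finished proteoglycans were the largest list, with 85.7%, 71.4% and 71.4% called in the 3 comparisons, beside the background of 43.9%, 38.8% and 45.6%. Of 14 tested, 9 were higher and 3 lower for Fb-Epn vs Fb-Skn, 6 higher and 4 lower for Fb-Epn vs Fb-Par, and 7 higher and 3 lower for Fb-Par vs Fb-Skn. *Sulf1*, which removes 6-O-sulfates outside the cell and was chosen after its values were seen, had a TPM of 335 ± 6.93 in Fb-Epn, with 285 ± 4.95 for Fb-Par and 101 ± 1.95 for Fb-Skn (SD, n = 3). *Hpse*, the heparanase that cuts the chains, was also higher in nerve, with 18.2 to 21.7, 13.2 to 17.5 and 2.85 to 3.65 TPM in the same order. Both genes thus followed the nerve and skin division seen for *Gpc6*, with log2 fold changes for Fb-Epn vs Fb-Skn of 1.59 for *Sulf1* (edgeR adjusted p = 4.6e-15) and 2.46 for *Hpse* (adjusted p = 1.1e-08). The proprotein convertase *Pcsk5* had 131 ± 3.07 TPM in Fb-Epn, with 31.2 ± 0.113 for Fb-Par and 63.5 ± 4.98 for Fb-Skn. The metalloproteinase *Mmp9* had 7.24 ± 0.663, 0.788 ± 0.242 and 5.07 ± 1.05 TPM in the same order and was lowest in Fb-Par. *Mmp7*, a metalloproteinase that sheds *Sdc1* protein in epithelia, had 34 to 54 counts in Fb-Epn and at most 3 in any other library. Its summed counts were 138 in Fb-Epn against 1 in Fb-Par, a scaled ratio of 134 with an exact 95% counting interval from 23.7 to 5330.0, and 4 in Fb-Skn, a ratio of 29.7 (11.4 to 111). These intervals cover counting error only.

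Of 10 intracellular partners of syndecans 3 were higher and 2 lower for Fb-Epn vs Fb-Skn, 3 higher and 1 lower for Fb-Epn vs Fb-Par, and 2 higher and 4 lower for Fb-Par vs Fb-Skn. The numbers called, 5, 4 and 6 of 10, lay near the background of 43.9% and 38.8% in the first comparisons and above the 45.6% in the last. *Tiam1*, a Rac exchange factor, had a TPM of 8.59 ± 0.648 in Fb-Epn, with 6.68 ± 0.685 for Fb-Par and 0.763 ± 0.197 for Fb-Skn (SD, n = 3). *Ezr*, which links membrane proteins to actin, had 23.5 to 27.2, 14 to 15.5 and 9.75 to 12.2 TPM in the same order.

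Other proteoglycans that can carry heparan sulfate all differed from skin. Of 5 tested, 3 were higher and 2 lower for Fb-Epn vs Fb-Skn (background 43.9% called). Against Fb-Par, 1 was higher and 3 lower in Fb-Epn (background 38.8%). For Fb-Par vs Fb-Skn, 4 were higher and 1 lower (background 45.6%). *Nrp1*, a semaphorin and VEGF co-receptor, had a TPM of 63.3 ± 0.998 in Fb-Epn, with 68.7 ± 0.452 for Fb-Par and 10.6 ± 0.194 for Fb-Skn (SD, n = 3). *Agrn*, a basement membrane proteoglycan, had 28.8 ± 0.830, 39.0 ± 1.72 and 10.7 ± 0.889 TPM in the same order, and *Tgfbr3*, betaglycan, had 66.4 ± 2.27, 21.3 ± 0.816 and 12.3 ± 0.204. *Cd44* went the other way, with 118 ± 2.47, 153 ± 2.13 and 277 ± 6.64 TPM, highest in Fb-Skn like *Sdc1*.

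The list of neuronal and glial receptors and ligands that bind heparan sulfate held 7 tested genes, all measured here in fibroblast cultures. Of these, 3 were higher and 2 lower for Fb-Epn vs Fb-Skn (71.4% called, background 43.9%). Against Fb-Par, 3 were higher and 4 lower in Fb-Epn (background 38.8%). For Fb-Par vs Fb-Skn, 4 were higher and 2 lower (85.7% called, background 45.6%). The receptor tyrosine phosphatase *Ptprf* had a TPM of 33.3 ± 1.27 in Fb-Epn, with 20.2 ± 1.05 for Fb-Par and 6.20 ± 0.108 for Fb-Skn (SD, n = 3). Its relative *Ptprd* had 19.9 ± 1.42, 7.87 ± 0.264 and 27.2 ± 1.58 TPM in the same order, lowest in Fb-Par. *Robo1*, a Slit receptor, was highest in Fb-Par (12.8 ± 0.766, against 3.10 ± 0.787 in Fb-Epn and 3.56 ± 0.975 in Fb-Skn), and the ligand *Slit2* was highest in Fb-Skn (86.0 ± 4.61, against 23.6 ± 1.01 and 39.6 ± 0.842).

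**Figure D4:**
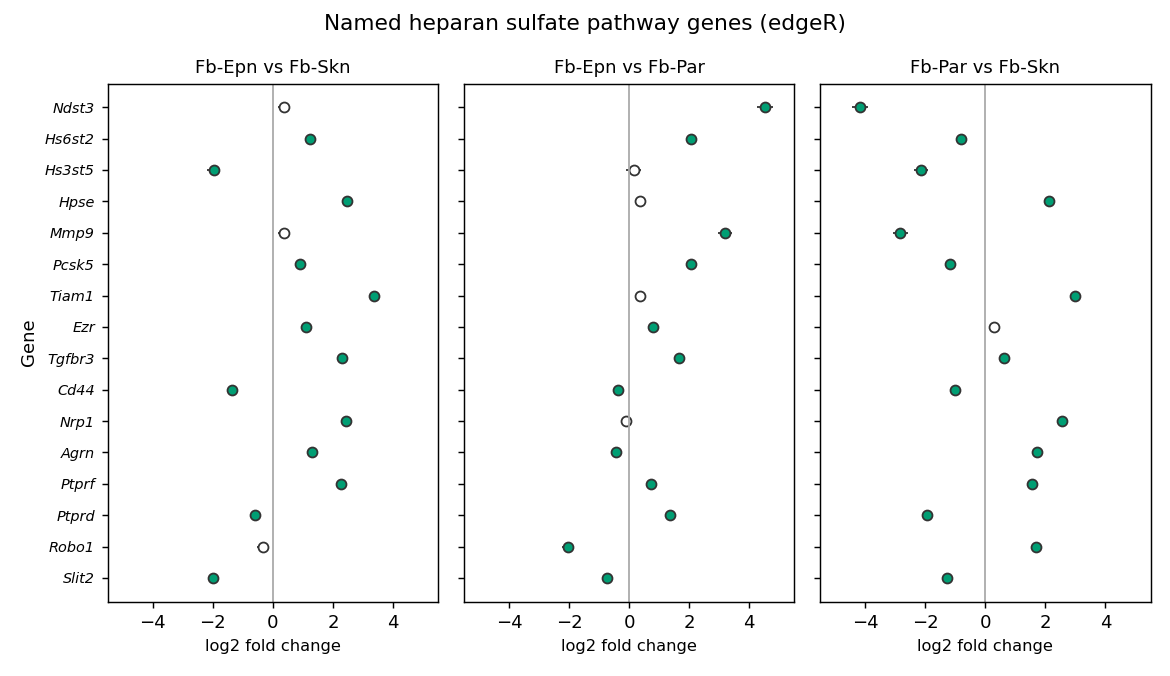
Log2 fold change (x axis) of the named heparan sulfate pathway genes (y axis) in the 3 comparisons, as edgeR estimates with bars of 1 standard error. Filled points had an adjusted p under 0.01, and *Mmp7* is left out because of its few counts. *Ndst3* lies at 4.52 in Fb-Epn vs Fb-Par and *Nrp1* at 2.55 in Fb-Par vs Fb-Skn.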

How the data were processed

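Poly(A) RNA of 9 libraries was sequenced in paired ends of 150 bp. Per the labels, the authors trimmed reads with Trimmomatic 0.38, aligned them to rn6 with HISAT2 2.1.0 and counted them with featureCounts 1.6.3. Libraries were directional, but neither the strand setting of the counter nor the release of its annotation was given in the sources used here. The authors deposited raw counts per gene and TPM. Dividing the 2 deposited tables showed that every gene had a single length in all libraries. A deposited FPKM table was not used. Groups and replicate numbers come from the sample titles.

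The counts were tested in edgeR 4.0.16 under R 4.3.3 (TMM, default expression filter, quasi-likelihood F test, all 9 libraries in 1 model). Libraries of one type varied with a common coefficient of 8.25%. Standard errors are the log2 fold change divided by the square root of F. The steps were tested on simulated counts for Fb-Epn against Fb-Skn. There, 197 of 200 changed genes were recovered among 13047 genes with 0 false calls. The simulated libraries were independent, with the same spread for every gene and few changed genes. The simulation therefore does not measure false calls in these data. The members, lists and tests were chosen with earlier results of these data known. Named genes are the members, the at most 4 genes of each list with the largest called log2 fold change above 1 in size, and the 2 nearest genes in pattern. Protein sequences were not used here, and 1 gene of the marker lists is not reported here. DESeq2 1.42.0 and limma 3.58.1 served as alternatives, besides other scalings, filters, thresholds and left-out libraries. Tables used Python 3.11.15.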

Additional observations from a re-analysis of the deposited data

How the results depend on the processing

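Over 19 alternatives for each of the 27 log2 fold changes of the members, 505 of 513 values kept their direction and their side of the threshold. *Sdc2* in Fb-Epn against Fb-Skn was not called with limma on log2(TPM + 1) or log2(TPM + 0.1), where TPM moved the median of all genes to 0.126 and 0.137 in this comparison. *Gpc2* in Fb-Par against Fb-Skn, never called, turned to 0.0363 with library size only, 0.0688 with limma on log2(TPM + 1), 0.082 on log2(TPM + 0.1), and ranged from -0.156 to 0.0171 when 1 library was left out, the latter without Fb-Par replicate 2. Calls that also required an absolute log2 fold change above 1 numbered 5 members and 13 pathway genes between Fb-Epn and Fb-Skn, 5 and 9 between Fb-Epn and Fb-Par, and 5 and 15 between Fb-Par and Fb-Skn. With one above 2, these numbers were 1 and 7, 1 and 6, and 2 and 6. The fall follows from the stricter rule itself. Same-numbered libraries of different types did not deviate together (r from -0.0510 to 0.0397, and from -0.0336 to 0.0482 for different numbers). Skin came from another rat, so only Fb-Epn and Fb-Par libraries could share an animal. This check cannot exclude a shared rat or preparation. With the replicate block, 8, 7 and 8 members were called, as without it. Scaling levels by TMM factors in place of TPM moved 17 of 27 member levels by more than 1 SD. *Gpc2* had 18 to 56 counts among Fb-Epn libraries, and leaving 1 of them out moved its log2 fold change between -0.46 and -1.33 against Fb-Skn and between -0.40 and -1.28 against Fb-Par.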
